A study of Mus musculus with 4 samples.

Results

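Keratins, crystallins, muscle myosin chains, troponins and the basic proteins of sperm chromatin are textbook products of tissues other than the brain, and their array signals in area CA1 of the hippocampus are described here. The members were all probe sets, other than array controls, whose single annotated gene symbol began with Krt, Crya, Cryb, Cryg, Myh, Myl, Prm or Tnp, followed by a digit in the names that carry one, or with Tnnc, Tnni or Tnnt. This rule matched names and used no measured value, but it was chosen with earlier results of these data known. It gave 112 probe sets for 77 genes, out of 10833 probe sets with 1 symbol for 8251 genes. A probe set is the group of short probes that together report 1 transcript, and a gene can have several.

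All 4 samples were total RNA from CA1 of young male C57BL/6J mice, an inbred laboratory strain, that the experimenter had handled and that had no other treatment. They were controls for mice that received shocks, and their RNA was taken 1, 2, 4 and 6 hours after the last shock of those mice, with 1 sample at each hour. Below, 4 values in a row are the deposited signals of these samples in that order, on a linear scale. Nothing in the labels tells if each RNA came from a single animal or from pooled animals, no shocked sample was analysed here, and the p-values measure only the spread between these 4 samples, which may be technical.

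The 4 arrays had a common scale, with a trimmed mean signal of 500.3 each. CA1 markers were readily measured, among them Nrgn, a postsynaptic calmodulin-binding protein, at 4491, 3418, 5162 and 3240, and Wfs1, a membrane protein enriched in CA1 pyramidal neurons, at 2292, 2274, 2797 and 1964. In contrast both probe sets of Camk2a, a kinase subunit that is abundant in these neurons, read low, at 29.7, 94.9, 55.2 and 34.9 and at 17.6, 15.2, 64.5 and 5.1. A low signal on these arrays was therefore no statement that a transcript was absent. The 1-hour sample stood apart from the rest: the ratio of 3' to 5' signal for Gapdh, which grows as RNA is shortened, was 4.52 there and 1.18 to 1.37 in the other samples, and over tested probe sets its correlation with them was 0.927 to 0.933, against 0.955 to 0.961 among the other samples. Its part in the results was not tested, and the spread and trend results are given with and without it.

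Keratins are the intermediate filament proteins of epithelia, hair and nail, built as pairs of an acidic and a basic chain. Crystallins fill the lens fibre cells, and alpha crystallins are also small heat shock proteins found in other cells. Sarcomeric myosin chains and troponins make up the contractile machinery of skeletal and cardiac muscle, whereas the non-muscle myosin chains Myh9, Myh10, Myh14, Myl6 and Myl12b serve cell shape and transport in most cell types, neurons included. Transition proteins and then protamines replace histones as the sperm nucleus condenses.

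Many of these genes are known for expression in few tissues, and the bases around their starts differed between the families. RefSeq start windows (build GRCm38.p6, 250 bases before to 50 after a start) matched 61 of the 77 genes. Across those 61 the median number of CG dinucleotides was 6, against 20 for 6572 genes of the array and 7 for all 32851 windows of the table, which include genes not on the array. For genes with several windows, the highest CG count was taken. The letters TATA, searched from 40 to 20 bases before the start and identical on both strands, were found in 25 of the 61 (41.0%), against 7.05% of genes on the array and 5.34% of all windows. A match to these letters is a description of the sequence and no evidence of a site. The 7 non-muscle and smooth muscle chain genes with a window held 15 to 33 CG, with a median of 19, and TATA in 0 of 7. The other families had medians of 4 to 7 CG. Single genes of those families lay in the same range and also lacked TATA, among them Crybg1 at 28, Myl4 at 25 and Krt7 at 21. The 120 bases before the start are shown for Myl12b, the non-muscle light chain with most CG, and for a lens, a muscle and a sperm gene, with CG and TATA in capitals. They lie at chr17:70990517-70990636 (minus strand) for Myl12b, chr17:31677811-31677930 (plus strand) for Cryaa, chr7:4515976-4516095 (minus strand) for Tnnt1 and chr16:10796824-10796943 (minus strand) for Prm1.
Myl12b: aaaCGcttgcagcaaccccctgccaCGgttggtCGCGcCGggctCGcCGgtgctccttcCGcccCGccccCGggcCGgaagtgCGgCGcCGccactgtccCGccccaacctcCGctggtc
Cryaa: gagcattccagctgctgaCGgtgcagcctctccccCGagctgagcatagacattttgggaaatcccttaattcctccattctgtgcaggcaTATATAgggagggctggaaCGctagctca
Tnnt1: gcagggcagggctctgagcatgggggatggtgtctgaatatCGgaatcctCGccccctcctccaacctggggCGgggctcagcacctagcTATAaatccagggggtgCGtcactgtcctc
Prm1: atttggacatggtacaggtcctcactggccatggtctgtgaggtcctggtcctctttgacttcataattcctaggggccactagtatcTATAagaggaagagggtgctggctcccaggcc

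**Figure D1:**
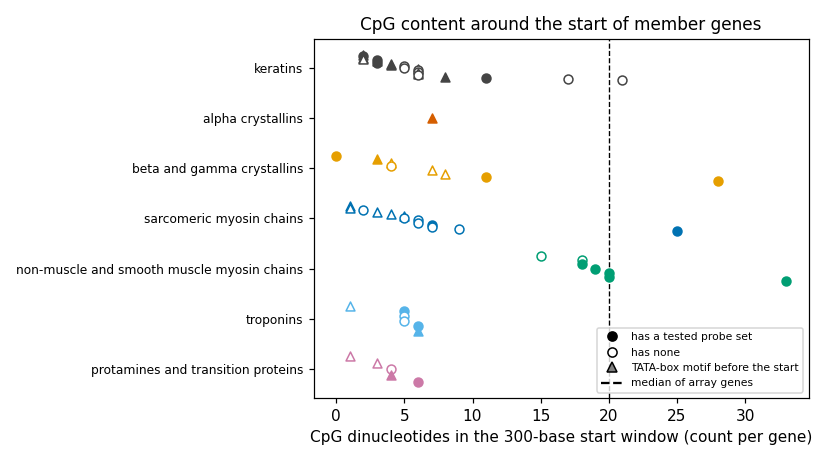
CpG (CG) dinucleotides in the 300-base window around the start, 1 symbol per gene, for the 61 member genes with a window, by family. Filled symbols have a probe set above the filter, open symbols have none, and triangles hold the TATA letters from 40 to 20 bases before the start. The dashed line is the median over genes of the array, 20, and the non-muscle and smooth muscle chains sit at 15 to 33 with no triangle.

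Member genes with and without a measured signal had much the same start windows. Those with at least 1 probe set above the filter described next had a median of 6 CG and TATA in 39.3%, and those with none had 5 CG and TATA in 42.4%. By these counts the letters around the start differed little between the genes with a measured signal and the rest, and no test of that was made.

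As a whole the members lay in the lower range of the arrays. The median member signal was 65.0, 51.8, 61.1 and 67.8, beside 192.8, 203.0, 195.9 and 200.4 for all probe sets with 1 symbol. For tests, values were quantile normalized, set to a floor at the 20th percentile (a signal of 35.1) and put on the log2 scale, and a probe set was tested where its mean reached the 40th percentile (a signal of 104.6). By this filter 40 of 112 members were tested (35.7%), against 62.2% of all probe sets with 1 symbol. At the other end 21 members (18.8%) were at the floor in all 4 samples, against 8.15%, and these have only an upper bound. Another 55 (49.1%) were above the floor in all 4 samples, against 70.8%. The counts move with the thresholds. With a filter at the 60th percentile 19 members were left, against 41.7% of all probe sets with 1 symbol. With a floor at the 40th percentile 61 members were at the floor throughout, against 28.9%. Since each probe set binds with its own strength, this ranks no gene against another. In bulk RNA, fewer cells of a type and less RNA per cell cannot be told apart.

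**Figure D2:**
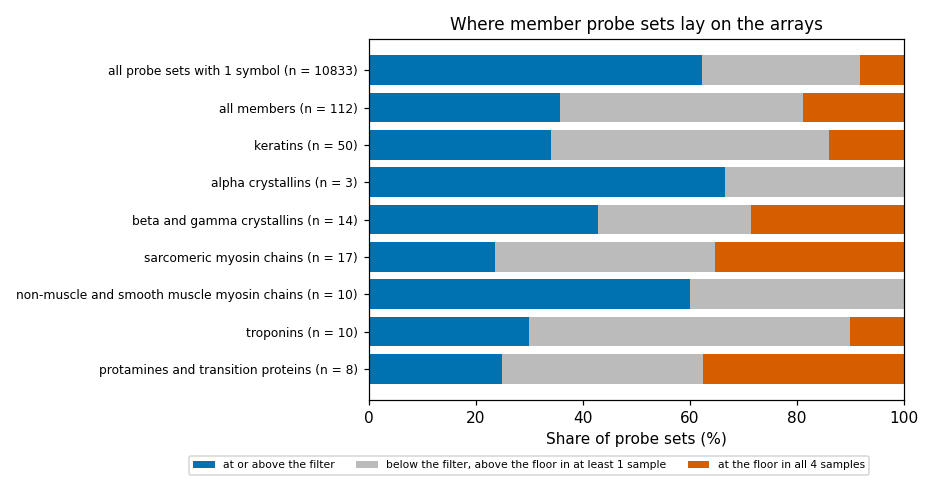
Share of probe sets at or above the filter, below it, or at the floor in all 4 samples, for all probe sets with 1 symbol, for the 112 members and for each family, in percent. The bar of all members reaches 35.7% for the filter against 62.2% for all probe sets, and sarcomeric myosin chains, at 23.5%, have the shortest such segment.

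The families differed in how many probe sets reached the filter. It was 6 of 10 for non-muscle and smooth muscle myosin chains (60%), close to the array as a whole, 2 of 3 for alpha crystallins, and 6 of 14 for beta and gamma crystallins (42.9%). Keratins had 17 of 50 (34%), troponins 3 of 10, protamines and transition proteins 2 of 8 (25%) and sarcomeric myosin chains 4 of 17 (23.5%). Without the non-muscle and smooth muscle chains 34 of 102 were tested (33.3%). These are counts, and no test of the differences was made.

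Myosin chains that work outside striated muscle gave some of the clearest member signals. Myl12b, a regulatory light chain of non-muscle myosin, read 14092, 11238, 10545 and 11162. Myh14, a non-muscle myosin heavy chain, read 835.8, 1102, 1185 and 1362, lowest in the 1-hour sample. The better of 2 probe sets for Myh9, the heavy chain of the most widespread non-muscle myosin, read 880.4, 1055, 963.1 and 923.1. Its other probe set read 466.0, 506.8, 421.4 and 584.0, so that Myh9 was the 1 member gene with several probe sets that were all tested. SDs of log2 values over the 4 samples were 0.11 for Myl12b, 0.29 for Myh14 and 0.10 and 0.18 for Myh9.

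Light chains shared with muscle were measured too. Myl9, the regulatory light chain of smooth muscle, read 267.8, 268.6, 311.8 and 199.9, lowest at 6 hours. Myl6b, an essential light chain found in slow muscle and in non-muscle cells, read 334.6, 321.3, 357.1 and 286.9 on 1 probe set and 63.6, 44.4, 79.0 and 99.5 on another, which was not tested. SDs were 0.28 for Myl9 and 0.15 and 0.53 for the Myl6b sets.

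Not every myosin chain with a known role in neurons was measurable. Myh10, the heavy chain of the non-muscle myosin that prevails in brain, read 20.2, 28.3, 64.0 and 14.1, at the floor in 3 of 4 samples. Myl6, the essential light chain of non-muscle and smooth muscle myosin, read 31.1, 39.2, 37.7 and 39.6. Myh11, the heavy chain of smooth muscle myosin, was low as well, at 49.6, 39.4, 21.6 and 16.8.

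Markers of vessel wall cells, in a list that counts Myh11 as well, were measured in part. Of 9 probe sets for smooth muscle and pericyte markers 5 were tested (55.6%, against 62.2% for all probe sets with 1 symbol), with a summed signal of 1242 to 1390 per sample. Acta2, smooth muscle actin, read 297.4, 255.6, 161.2 and 210.1, while Cnn1, calponin, was at the floor in all 4 samples. How much of the Myl9 signal came from such cells was not tested.

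Sarcomeric myosin chains were mostly at or near the floor. Myh1 and Myh2, fast heavy chains of adult skeletal muscle, Myh6, the heavy chain of the atria and the adult mouse ventricle, and the light chains Myl2 and Myl3 of the ventricle were at the floor in all 4 samples. Signals of these 5 probe sets ran from 6.4 to 31.0. Myh3, Myl7 and Myl10 were at the floor in 2 or 3 samples each, and Myh8, the perinatal heavy chain, had 1 probe set at the floor throughout and 1 at 144.8, 5.9, 135.8 and 117.7.

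Of the 17 sarcomeric probe sets, 4 were tested. Myh7, the slow and cardiac beta heavy chain, read 511.5, 288.1, 350.0 and 476.6, and its second probe set, just below the filter, read 209.1, 78.3, 79.4 and 65.5. Both carry the letter f in their names, which marks probes that match a family of related sequences, and Myh6 and Myh7 are near-identical neighbours, so the gene behind these signals is uncertain. Myl4, the atrial and embryonic light chain, read 225.8, 292.4, 264.8 and 307.7. Its other probe set read 163.2, 79.1, 65.9 and 63.1 and was highest where the first was lowest. Myl1, a light chain of fast muscle, read 123.4, 109.7, 158.5 and 160.8. Myh4, the heavy chain of the fastest fibres, was just above the filter at 90.1, 134.7, 58.1 and 183.0. That set carries the letter r, for probes chosen under relaxed rules. A second Myh4 set, with no letter, read 16.2, 29.1, 39.6 and 52.0.

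Troponins followed the sarcomeric chains, with 1 tested member of the C, I and T subunits each. Tnni1, the inhibitory subunit of slow muscle, read 421.6, 409.0, 551.3 and 448.6 on its only probe set. Tnnt1, the tropomyosin-binding subunit of slow muscle, read 195.7, 176.4, 146.4 and 206.6, and 74.6, 27.4, 82.6 and 151.9 on an untested set. Tnnc2, the calcium-binding subunit of fast muscle, read 117.8, 115.2, 200.6 and 193.6 on a set with the letter f. Its second set, with no letter, was at the floor throughout, at 25.5, 20.6, 18.7 and 5.3. The cardiac genes Tnnc1, Tnni3 and Tnnt2 and the fast-muscle genes Tnni2 and Tnnt3 were not tested, and Tnnt2 was highest of these by its mean, at 84.9, 64.3, 77.3 and 87.7.

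Both alpha crystallin genes had a tested set. Cryab, a small heat shock protein of glia as well as lens, read 288.9, 388.1, 264.1 and 286.5 on a set with the letter f and 88.0, 25, 98.4 and 41.6 on a set with no letter. Cryaa, the partner that is largely restricted to the lens, read 370.5, 229.7, 186.4 and 155.5, highest at 1 hour and lowest at 6 hours.

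Beta and gamma crystallins had 4 of 8 genes with a tested set, against 5685 of 8251 genes with 1 symbol. Crybb2, a main beta crystallin, read 413.5, 469.8, 380.0 and 596.7 on a set with the letter r, for probes chosen under relaxed rules, and 7.3, 30.1, 25.5 and 20.6 on the other. Crygs, the gamma crystallin of the adult lens cortex, read 135.4, 249.6, 129.4 and 153.3, with the 2-hour sample above the rest. Crybg1, which carries the crystallin fold but is no lens protein, read 109.1, 109.0, 106.0 and 127.2.

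Cryge, a gamma crystallin of the lens fibre core, had 4 probe sets, of which 3 were tested. The sets with the letter f read 270.6, 272.6, 239.5 and 271.7 and 253.6, 189.3, 117.9 and 244.0, and the set with the letter r read 134.6, 180.9, 136.1 and 168.0. The untested set, with no letter, read 78.7, 51.4, 83.5 and 54.1. Gamma crystallin genes are close copies of each other, so these signals cannot be assigned to 1 gene. Crygd read 230.4, 61.6, 47.3 and 119.2 on a set with the letter f and 39.6, 26.4, 26.5 and 46 on a set with no letter, and neither was tested. Crygb, Crygc and Cryba1 were at the floor in at least 3 samples on every probe set.

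Keratins were the largest family, and 17 of 33 genes had a tested probe set, against 5685 of 8251 genes with 1 symbol. Krt81, a basic hair keratin, read 1192, 969.1, 1167 and 1248 on 1 probe set, and on 3 others it read 41.4, 56.6, 83.0 and 28.2, then 13.0, 15.1, 7.3 and 18.1, then 6.7, 10.3, 8.2 and 5.6. Its basic relative Krt86 read 304.3, 422.3, 565.0 and 360.5. Here the probe set chosen decides whether Krt81 is counted as high. The high set has no suffix letter, and the low sets carry the letter r or the letter i, for an incomplete set.

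Among the acidic hair keratins 4 had a tested set. Krt36 read 383.7, 437.0, 375.5 and 527.9 on its only set, with the letter r. Krt35 read 183.7, 157.8, 237.9 and 226.7 on a set with the letter r and, on a lower set, 33.0, 40.4, 58.2 and 153.1. Krt32, on a set with no letter, read 324.8, 463.9, 295.4 and 449.3, with 36.8, 38.6, 61.0 and 97.2 on a second. Krt33b, on a set with the letter f, read 172.7, 199.9, 151.6 and 77.6, lowest at 6 hours, and its untested set read 85.5, 141.8, 59.6 and 80.9, highest at 2 hours as well. Krt84, a basic keratin of nail and tongue, read 209.9, 148.8, 152.9 and 165.1 on a set with the letter f. Its second set, with no letter, was at the floor throughout.

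Keratins of the inner root sheath of the hair were represented by Krt71 and Krt72. Krt71 read 164.5, 53.8, 143.7 and 198.9, with the 2-hour sample far below the others. Krt72 read 162.7, 289.4, 237.7 and 252.2, lowest at 1 hour. Their partners Krt25 and Krt27 were not tested.

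Known pairs of epidermal keratins differed in which probe sets reached the filter. For the pair of the upper epidermis, Krt1 read 251.9, 267.0, 300.4 and 306.5 and Krt10 read 434.2, 319.1, 368.7 and 251.8, with 23.0, 6.5, 4.0 and 81.2 on a second Krt10 set. For the basal pair, Krt5 read 68.8, 87.8, 38.3 and 52.2 and Krt14 was at the floor in all 4 samples. Krt2, of the uppermost layers, read 325.5, 298.2, 291.5 and 397.3 on a set with the letter f and 38.2, 96.7, 61.2 and 57.4 on a set with no letter. Krt77 was not tested, at 88.1, 63.4, 68.4 and 122.6.

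The mucosal pair was split by the filter. Krt4 read 306.1, 317.8, 339.9 and 313.9, the smallest relative spread of any tested keratin (SD 0.07), with a second set at the floor in 3 samples. All 3 sets of its partner Krt13 were below the filter, with mean signals of 21.1 to 58.45. Krt12, the keratin of the cornea, read 227.2, 128.1, 203.3 and 242.9.

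Keratins linked to wounding and the hair follicle gave mixed readings. Krt6b read 465.5, 482.1, 478.4 and 545.4, and Krt6a read 373.6, 316.4, 257.9 and 279.9 with 58.3, 56.8, 51.3 and 44.2 on a second set. Krt17 read 126.2, 267.5, 358.7 and 349.9 on a set with the letter r, lowest at 1 hour. Its other sets did not show that order, at 46.1, 49.7, 44.5 and 48.9 and at 55.3, 46.2, 44.9 and 31.7. Krt16, an acidic partner of Krt6a and Krt6b, was at the floor in all 4 samples.

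Keratins of simple epithelia, the type found in the choroid plexus and in other single-layered linings, were not tested. Krt8 read 30.6, 42.8, 45.1 and 68.3. Krt18 read 95.8, 72.2, 29.8 and 131.9 on its better set and 4.1, 29.2, 35.3 and 18.1 on the other. Krt7 and Krt20 were at the floor in 2 or 3 samples and both Krt19 sets in all 4, the lower at 5.6, 8.0, 7.2 and 8.1. The choroid plexus marker Ttr, a thyroid hormone carrier, read 2246, 198.8, 352.7 and 142.8, highest at 1 hour. The choroid plexus markers Kl, Calml4 and Folr1 were highest at 1 hour as well. Igfbp2, another marker of the list, read 465.2, 531.3, 596.8 and 358, highest at 4 hours. The list's summed signal, in which Krt8 and Krt18 are counted, was 3494, 1197, 1392 and 1190, and Ttr made up most of it at 1 hour. Krt8 was lowest and the better Krt18 set second highest at that hour, and the part of choroid plexus in these signals was not tested. Krt15, Krt31, Krt34 and Krt83 complete the family and were not tested, and Krt31 lay just below the filter at 59.2, 133.3, 89.5 and 121.7.

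Of the sperm chromatin genes, Tnp1 alone gave a clear signal, and on 1 of its 2 probe sets only. That set, with the letter r, read 643.1, 936.1, 857.2 and 994.3, and the set with no letter read 12.1, 9.6, 7.6 and 11, at the floor throughout. Tnp2, the other transition protein, was just above the filter at 95.9, 198.7, 104.6 and 67.2. Prm1 was at the floor in all 4 samples, at 12.3, 32.7, 13.6 and 27.8. Prm2 was at the floor in all 4 samples on 1 set and in 2 on the other. Prm3 read 41.5, 50.2, 67.3 and 47.1 on the set with the higher mean log2 value and 12.1, 32.7, 35.6 and 126.3 on the other.

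**Figure D3:**
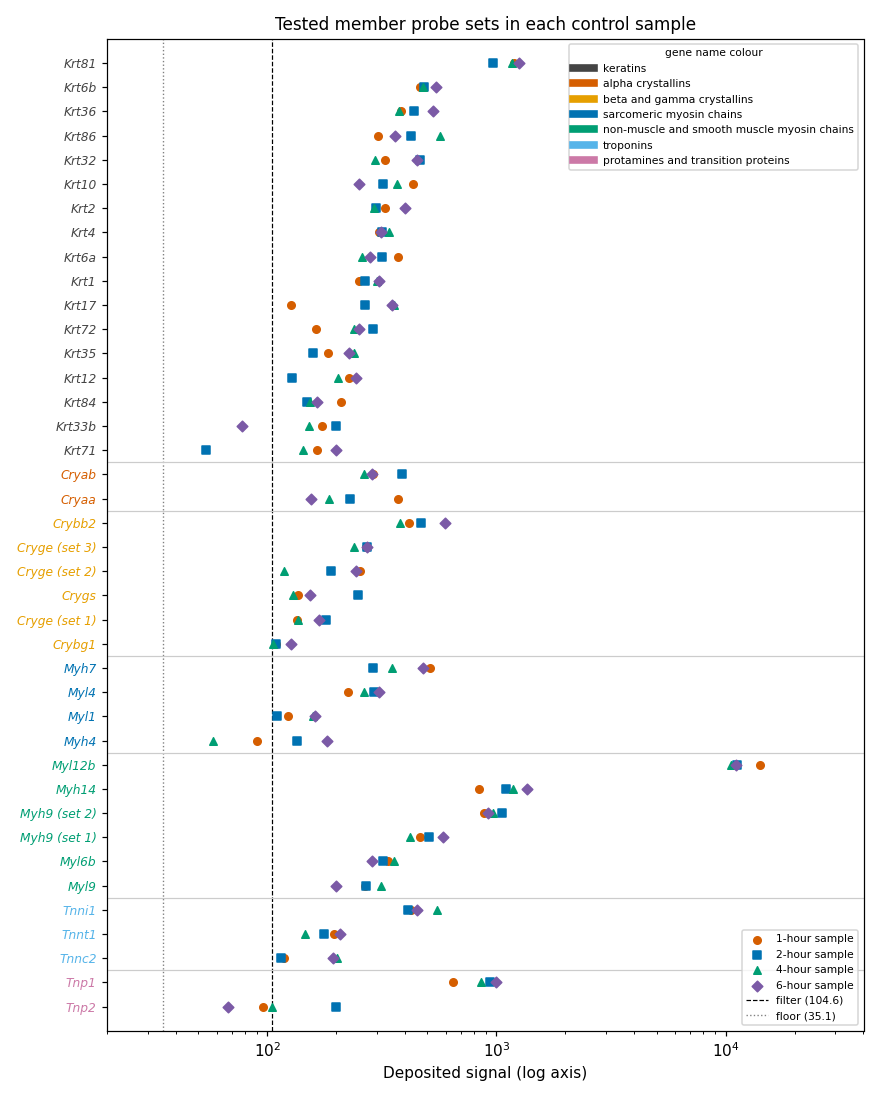
Deposited signal (log axis) of the 40 tested member probe sets in each of the 4 control samples, grouped by family. Myl12b is at 10545 to 14092, Krt81 lies at 969.1 to 1248 and Myh14 at 835.8 to 1362, and the widest rows are Krt71, Krt33b, Krt17, Cryaa, 1 Cryge set, Myh4 and Tnp2. The dashed line is the filter (104.6) and the dotted line the floor (35.1).

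Tnp1, Krt81 and Crybb2 were not isolated cases of probe sets that disagreed. Of 29 member genes with more than 1 probe set, 1 had all of them tested, 8 had none tested, and 20 were split. In 9 of the 20 split genes every tested set carried a suffix letter and a set with none of the same gene lay below the filter. In 5 genes, Krt81 among them, it was the other way round, and in 6 neither held. Such a letter stands for probes that match related sequences (f, s, g), for an incomplete set (i) or for relaxed choice rules (r). A letter was carried by 16 of the 40 tested members (40%), against 17.5% of tested probe sets with 1 symbol, and by 22 of 72 untested members (30.6%), against 26.9%. Members with no letter were tested in 24 of 74 cases (32.4%), against 65.0% for such sets with 1 symbol, and of the 37 genes with a tested set 13 were tested on sets with a letter alone. Whether cross-hybridization gave any of these signals was not tested.

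**Figure D4:**
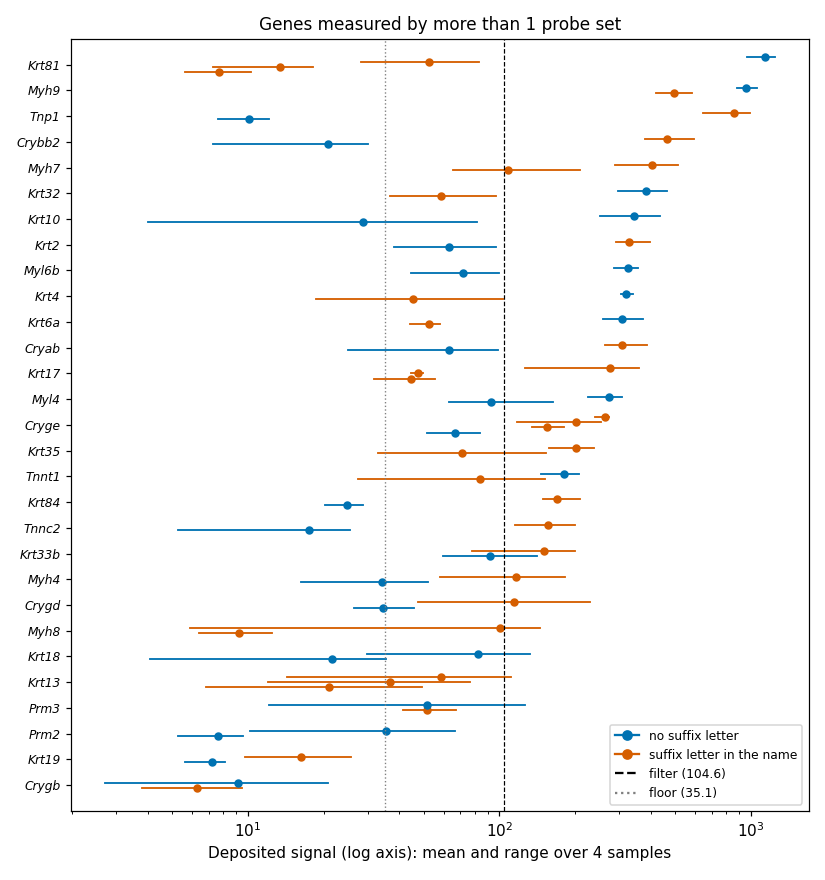
Mean and range over 4 samples of the deposited signal (log axis) for every probe set of the 29 member genes with more than 1, blue where the set's name has no suffix letter and orange where it has one. In every row but those of Myh9 and Myh7 at least 1 mean lies left of the filter (104.6), which was applied to the mean log2 value, and Tnp1 and Crybb2 have an orange set to its right and a blue set left of the floor (35.1).

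Runs of neighbouring member genes differed in how many had a tested set, and no test of this was made. A tested set was found for 37 of the 77 member genes, against 5685 of 8251 genes with 1 symbol. Among the 77 genes 48 lie in 13 runs of members that follow each other with no other protein-coding gene between, in RefSeq gene order. Some of these runs are given here. In the run Tnp2, Prm3, Prm2 and Prm1, 1 of 4 had a tested set. The run Myh3, Myh2, Myh1, Myh4 and Myh8 had 1 of 5, and the run Krt6b, Krt6a, Krt5, Krt71 and Krt72 had 4 of 5. In the run of 9 acidic keratins from Krt33b to Krt19 there were 4 of 9, and in the pair Krt8 and Krt18 0 of 2.

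Over all 4 samples tested members varied about as much as the array did. Without the 1-hour sample their median SD was above that of the array, a difference that was not tested and that rests on the filter used. A range of 1 log2 unit or more was seen in 7 of 40 (17.5%), against 17.9% of 7453 tested probe sets, and the median SD was 0.26 against 0.25. The 7 were Krt71, Krt33b, Krt17, Cryaa, 1 Cryge set, Myh4 and Tnp2. Without the 1-hour sample they were 5 of 41, against 8.95%. The median SD was then 0.25 for tested members and 0.20 for all tested probe sets. With all 4 samples and a filter at the 60th percentile, 0 of 19 members had such a range, against 8.61%. The median SD at that filter was 0.20 for members and 0.21 for all tested probe sets. The 1-hour sample was the highest or lowest in 3 of the 7 (42.9%), against 70.1% of the 1331 such probe sets of the array, and the 6-hour sample in 5 of 7 (71.4%), against 44.9%.

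Differences of each sample from the average of the remaining samples were called at 2-fold, and the SD given is that of the remaining samples. No test was possible with 1 sample at an hour. In the 1-hour sample Cryaa was higher by 1.01 on the log2 scale (SD 0.27) and Krt17 was lower, at -1.35 (SD 0.25), where 1.78% of all tested probe sets were 2-fold above and 4.56% 2-fold below. In the 2-hour sample Tnp2 was higher by 1.12 (SD 0.34) and Krt71 lower, at -1.70 (SD 0.21), against 1.27% and 1.72%. Tnp2 and Krt71 were the furthest above and the furthest below among the tested members of all 4 samples.

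The later samples had departures of other genes. In the 4-hour sample no member was 2-fold above, against 1.07%, and Myh4 was lower, at -1.11 (SD 0.51), against 1.93%. In the 6-hour sample Myh4 was higher by 1.04 (SD 0.56) and Krt33b lower, at -1.15 (SD 0.17), against 1.49% and 1.61%. Myh4, on its set with the letter r, thus stood at both ends, in neighbouring samples and with a wide spread among the rest. Some of these calls rested on 1 sample: without the 6-hour sample, 0 members were 2-fold above at 2 hours or 2-fold below at 4 hours, and without the 2-hour sample 0 were 2-fold above at 6 hours. With the floor at the 40th percentile 0 members were 2-fold apart in either direction at 2, 4 or 6 hours, and with the values as deposited Cryaa was no longer called at 1 hour. Next in rank, under 2-fold, were Cryge above (0.57, SD 0.50) and Krt72 below (-0.64, SD 0.12) at 1 hour, Crygs above (0.80, SD 0.12) and Krt12 below (-0.88, SD 0.12) at 2 hours, Krt17 (0.69, SD 0.75) and Krt86 (0.67, SD 0.21) above and Cryge below (-0.90, SD 0.26) at 4 hours, and Krt71 above (0.85, SD 0.92) and Tnp2 below (-0.88, SD 0.54) at 6 hours.

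**Figure D5:**
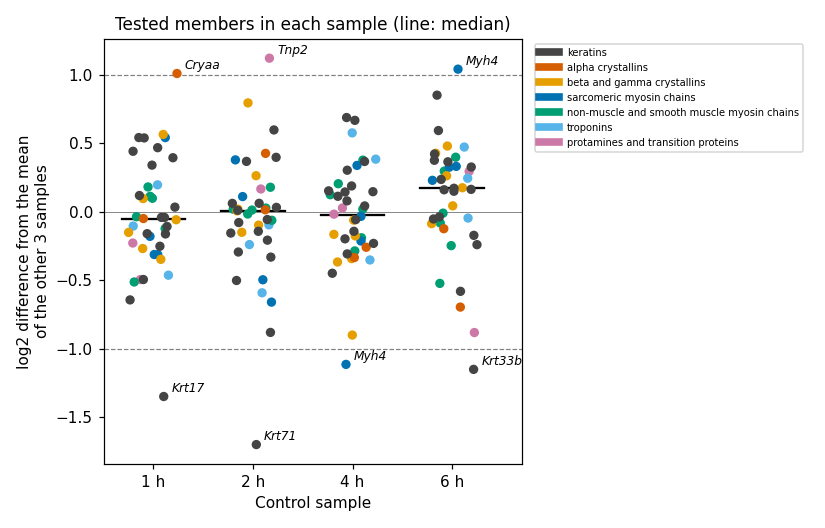
Difference of each tested member in 1 sample from the mean of the other 3, on the log2 scale, coloured by family, with the median of the 40 members as a bar. Dashed lines mark 2-fold. The medians are -0.05, 0.01, -0.02 and 0.18, and the named points are the members past 2-fold.

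Median differences of the members were small in every sample and largest at 6 hours, and they were not tested. Their median difference was -0.05, 0.01, -0.02 and 0.18, beside 0.05, 0.01, 0.01 and 0.00 for all tested probe sets. In the 6-hour sample 25 of 40 lay above the mean of the other 3, against 3728 of all 7453 tested probe sets.

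A linear trend with hours was fitted across all 7453 tested probe sets, as the log2 change from 1 to 6 hours. With 2 residual degrees of freedom, limma with Benjamini-Hochberg adjustment called 0 of 40 members and 0 of all tested probe sets (0%). At an unadjusted p under 0.05 there were 3 members, against 465 probe sets (6.24%): 2 with higher signals at 6 hours, against 3.57%, and 1 with lower, against 2.67%. They were Cryaa at -1.13 (SE 0.41), Krt17 at 1.30 (SE 0.48) and Myh14 at 0.60 (SE 0.24), each with an adjusted p of 0.74 by limma. The count moved with single samples: it was 1 member of 231 probe sets without the 1-hour sample, 4 of 901 without the 2-hour, 1 of 285 without the 4-hour and 2 of 369 without the 6-hour sample. Trends were positive for 26 members and negative for 14, against 3515 and 3938 of all tested probe sets. The median was 0.16 for members and -0.02 for all tested probe sets. Without the 1-hour sample they were positive for 25 members and negative for 16, with a median of 0.15 against 0.002. Without the 6-hour sample the order turned, with 19 positive, 21 negative and a median of -0.01 against -0.02.

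The 3 trends were smaller without the 1-hour sample. Fitted from 2 to 6 hours, they came to -0.54 for Cryaa, 0.40 for Krt17 and 0.30 for Myh14. Over the alternatives tried, the adjusted p by limma was 0.30 to 1 for Cryaa, 0.27 to 1 for Krt17 and 0.35 to 1 for Myh14.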

How the data were processed

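RNA from CA1 of 4 handled control mice or pools (1 group) was measured on 1-colour arrays. The deposited values are intensities on a linear scale, scaled by the authors to a common level, as their trimmed means show (2% at each end). The array software is not given in the sources used here. Symbols came from the annotation table of the array; of 12422 probe sets that were not controls, 396 had several symbols and 1193 none, and 10817 with 1 symbol were matched to RefSeq gene identifiers (GRCm38.p6).

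Columns were quantile normalized, floored and put on the log2 scale, and limma 3.58.1 under R 4.3.3 gave the trend with lmFit and eBayes (intensity trend on). The fit was tested on simulated data. Figures used matplotlib 3.10.9 in Python 3.11.15. A digit had to follow Krt, Myh, Myl, Prm and Tnp directly, so Krtap, Mylk, Mylpf and Prmt genes were left out. Members, gene lists and naming rules were chosen with earlier results of these data known. Named were all tested members, all sets of genes with several, the untested members with the highest and lowest mean per family, those next to the filter, the 2 furthest above and below per sample, and the top 2 of each related list. Alternatives covered scaling, floor, filter, symbols, sets with a suffix letter, variance model, time scale and left-out samples.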

Additional observations from a re-analysis of the deposited data

Results flagged for a closer look

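Of 48 member probe sets checked, 2 (4.17%) had 1 sample far from the other 3 for the range of the group, and chance alone flags about 1 in 20 groups. Krt4 was highest in the 4-hour sample, at 339.9, with the other samples at 306.1 to 317.8. Krt6b was highest in the 6-hour sample, at 545.4, with the others at 465.5 to 482.1. Both gaps are small against the signal, since these 2 keratins have SDs of 0.07 and 0.09 on the log2 scale. The same check marked the Gapdh ratio of 3' to 5' signal, which was 4.52 at 1 hour and 1.18 to 1.37 at the later hours, and neither keratin was far off in the 1-hour sample.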

How the results depend on the processing

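Of 155 alternative values for 16 results, 124 stayed within 1.5 times of a count or kept their direction and side of the test's threshold, and 31 counts moved further. No trend of a named gene reversed or passed the test, while some 2-fold counts went to or from 0. Members tested came to 112 with no filter on low values and 24 without sets with a suffix letter. With a filter at the 60th percentile they came to 19, against 41.7% of probe sets with 1 symbol. Members at the floor throughout came to 61 when floored at the 40th percentile and 9 when floored at the 10th, against 28.9% and 2.52% of probe sets with 1 symbol. A range of 1 log2 unit or more was seen in 4 of 41 tested members with the floor at the 40th percentile, against 13.6% of tested probe sets. It was 32 of 112 with no filter, against 27.6%, and 0 of 19 with a filter at the 60th percentile, against 8.61%. Without sets with a suffix letter it was 3 of 24 members, against 17.9% of all tested probe sets. With no filter, 2-fold counts above the other samples were 5, 2 and 9 at 1, 4 and 6 hours, and those below were 2, 4 and 3 at 1, 2 and 4 hours. With the floor at the 40th percentile they were 2 and 0 above at 1 and 2 hours, 0 below at 2 and 4 hours, and 0 in either direction at 6 hours. With values as deposited, 0 members were above at 1 hour. For these 2-fold counts no share over the array was taken at each setting. Leaving out each sample in turn gave 40 to 41 tested members and 22 to 26 at the floor throughout, against 9.63% to 10.2% of probe sets with 1 symbol. It gave 5 to 7 with a wide range, against 8.95% to 13.8% of tested probe sets, and a median SD of 0.23 to 0.26. It gave 2-fold counts above of 1 to 3 at 1 hour, 0 to 1 at 2 hours and 0 to 2 at 6 hours, and below of 1 to 2 at 2 hours, 0 to 2 at 4 hours and 1 to 2 at 6 hours. Trend calls among members were 0 in every alternative, and by limma 3 of 7453 probe sets, none of them members, passed without the 2-hour sample. The number of arrays limits the precision: 2 residual degrees of freedom allow only large and steady trends to pass. No paired analysis was possible because all samples belong to 1 group.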

Other observations

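Other genes of the same tissues, from lists that do not hold the members, can be set beside the array as a whole, where 62.2% of probe sets with 1 symbol reached the filter, though no test of the differences was made. The count was 22 of 48 for muscle (45.8%), 2 of 6 for lens (33.3%), 8 of 26 for skin and other epithelia (30.8%) and 6 of 30 for male germ cells (20%), and limma called a trend in 0 of them, with 2 of the germ cell sets and none of the others at an unadjusted p under 0.05. Some of the muscle genes that read high, though not all, are also known from neurons, and the source of their signals was not tested. Pvalb, a calcium buffer of fast muscle and of a class of interneurons, read 3560, 3395, 3057 and 3302 on 1 set and 262.6, 180.2, 147 and 205.8 on another. Atp2a2, a calcium pump of the endoplasmic reticulum in heart and brain, read 1949, 2619, 2270 and 2485. Other tested genes of the muscle list were Casq1, at 483.7, 421.1, 364.9 and 432.8, and Myod1, at 335.6, 229.4, 237.7 and 273.9. Nppa, Acta1 and Myog were tested as well, with mean signals of 215.9, 192.8 and 159.7. Mylk, the kinase that acts on myosin light chains and no member by name, read 809.3, 764.8, 670.5 and 711.7. Mylpf, a fast-muscle light chain also outside the name rule, read 94.8, 222.2, 147.8 and 176.5 on a set with no letter. Its second set, with the letter f, was at the floor in all 4 samples, at 15.9, 7.9, 5.6 and 3.8.

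Disagreement between probe sets recurred in the skin and germ cell lists. Sprr1b, a protein of the cornified envelope, read 4380, 3505, 3878 and 3776 on 1 set and 3.3, 8.8, 35.9 and 2.5 on another. Lor, the main envelope protein, read 488.4, 458.1, 506.3 and 464.7 and then 15.9, 47.9, 63.2 and 32.2. Adam3, a sperm surface protein, read 217.3, 238.0, 284.8 and 399.6 and then 7.0, 47.9, 5.7 and 29.0. In these 3 genes, singled out after their values were seen, the higher set carried the suffix r, for relaxed choice rules. In Dsp, Odf2, Flg and Adam2 a set with that suffix was the lowest, with mean signals of 13.4, 21.9, 8.35 and 18.4, and the highest set had no suffix letter, with means of 228.8, 189.2, 97.6 and 49.4. Of members with that suffix 7 of 12 were tested (58.3%), against 24 of 74 members with no suffix letter (32.4%). Over all probe sets with 1 symbol the order was the other way, with 42.5% tested for the suffix r and 65.0% for no suffix letter. Hspa2, a chaperone of spermatocytes also found in brain, read 130.6, 290.2, 232.7 and 270.5. In the lens list Bfsp1, a lens filament protein, read 180.4, 131, 120 and 94.6, and Maf, a transcription factor of lens and other tissues, read 16.7, 206.7, 133.1 and 212.2, lowest at 1 hour.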
